A study of Mus musculus with 16 samples.

Results

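The receptors described here are 10 G protein-coupled receptors of the pancreatic islet that answer hormones, neurotransmitters and extracellular calcium: *Glp1r*, *Gipr*, *Gcgr*, *Sstr1*, *Sstr2*, *Sstr3*, *Sstr5*, *Adra2a*, *Chrm3* and *Casr*. They were chosen by symbol, with earlier results of these data known, and are 10 of the 52636 genes in the count table. All 10 passed the filter on low counts that left 18587 genes for testing. Mouse islets, the endocrine cell clusters of the pancreas, were cultured for 10 days in 4 conditions: control (unexposed), 50 pg/mL recombinant mouse IL-1β, 50 pg/mL IL-1β plus 0.2 mM sodium butyrate, and 0.2 mM sodium butyrate alone. IL-1β is a cytokine of inflammation, and the short chain fatty acid butyrate is a product of gut bacteria. Each condition had 4 libraries, numbered replicates 1 to 4 by the labels, and each library held the RNA of 500 islets pooled from mice, so that a replicate is a pool and not an animal. The mice were male, 12 weeks old and unmodified, and their strain is C57BL/6JRj in the labels and C57BL/6NRj in the study's methods.

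These receptors couple to heterotrimeric G proteins, and the kind of G protein sets the direction of their effect on secretion. Receptors for glucagon-like peptide 1, glucose-dependent insulinotropic polypeptide and glucagon act through Gs, which activates adenylyl cyclase and raises cAMP, and are known to amplify insulin secretion at high glucose. The muscarinic M3 receptor acts through Gq and phospholipase C, the calcium-sensing receptor acts mainly through Gq and Gi, and the somatostatin receptors and the α2A-adrenergic receptor act through Gi and are known as brakes on islet hormone secretion.

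A library held between 18635943 and 25955943 counts (median 22184715). Values are given as CPM, counts scaled to the size of the library with TMM, a normalization to the bulk of genes, and as means ± SD of 4 libraries. Log2 fold changes come with their SE from one edgeR quasi-likelihood fit to all 16 libraries, and the call required an adjusted p (Benjamini-Hochberg, FDR) under 0.01, the study's threshold. In RNA of whole islets, fewer cells of a type and less RNA per cell cannot be told apart. The labelled tissue showed in its markers, with a summed CPM of 10 beta cell markers (insulin genes included) between 138400 and 263200, and of 5 delta cell markers, *Sst* included, between 1697 and 3191.

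RefSeq holds promoter entries for 7 of the 10 receptors (*Gipr*, *Sstr1* and *Sstr5* were without one). Printed are 200 bases, 250 to 51 bases before the RefSeq transcript start on build GRCm38.p6, for 4 receptors that were called with only one of the agents given alone and whose window lay outside the annotated gene: *Sstr2*, called higher with IL-1β; *Glp1r* and *Casr*, both called lower with IL-1β; and *Chrm3*, called lower with butyrate. Capitals mark the GC box GGGCGG and the core of the cAMP response element, TGACG, on either strand (both strands match in the palindrome TGACGTCA).
Sstr2 (chr11:113619077-113619276, plus strand): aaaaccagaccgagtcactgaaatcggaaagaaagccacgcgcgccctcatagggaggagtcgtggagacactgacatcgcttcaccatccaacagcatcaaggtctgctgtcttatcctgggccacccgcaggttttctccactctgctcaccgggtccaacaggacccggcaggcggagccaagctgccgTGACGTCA
Glp1r (chr17:30901617-30901816, plus strand): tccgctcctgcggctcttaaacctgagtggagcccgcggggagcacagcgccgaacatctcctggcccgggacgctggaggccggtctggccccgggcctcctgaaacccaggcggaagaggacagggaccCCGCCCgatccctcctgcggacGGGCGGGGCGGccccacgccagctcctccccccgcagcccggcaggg
Casr (chr16:36562185-36562384, minus strand): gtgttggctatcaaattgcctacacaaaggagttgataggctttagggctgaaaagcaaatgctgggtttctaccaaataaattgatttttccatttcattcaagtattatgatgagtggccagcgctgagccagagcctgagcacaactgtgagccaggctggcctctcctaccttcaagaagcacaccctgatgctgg
Chrm3 (chr13:10360854-10361053, minus strand): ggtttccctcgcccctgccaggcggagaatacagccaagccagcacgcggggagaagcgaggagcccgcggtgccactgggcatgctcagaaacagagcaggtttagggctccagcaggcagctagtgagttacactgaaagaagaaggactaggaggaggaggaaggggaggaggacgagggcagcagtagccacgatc
The stretch before *Sstr2* ends in a palindromic TGACGTCA and holds no GC box, the stretch before *Glp1r* holds 3 GC boxes, of which a pair shares a base, and those before *Casr* and *Chrm3* hold neither motif. Among 32817 promoter stretches of the same length, 24.6% held GGGCGG and 12.7% held TGACG. In CG dinucleotides the 4 stretches ranged widely, from 20 for *Glp1r*, 13 for *Sstr2* and 9 for *Chrm3* to 1 for *Casr*, beside a median of 4 (quartiles 2 and 11) over all stretches. These matches describe the letters in one window, and the receptors called in the same direction with IL-1β, *Glp1r* and *Casr*, had the most and the fewest CG dinucleotides of the 4.

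On the length-scaled level (CPM per kb of exon), the receptors spanned more than 2 orders of magnitude. In control islets, *Sstr3* was the most abundant of the 10 (58.9 CPM per kb), followed by *Adra2a* (45.0) and *Gipr* (38.1), and the ranges of the 4 libraries of these neighbours did not overlap. A second tier held *Casr* (26.9), *Glp1r* (22.6) and *Gcgr* (21.4), in which *Casr* stood clear of the others and the ranges of *Glp1r* and *Gcgr* overlapped. *Chrm3* was at 8.51 CPM per kb. The other somatostatin receptors lay far below it, with *Sstr1* at 1.09 and *Sstr2* at 0.952, ranges that overlapped, and *Sstr5* at 0.250 CPM per kb. Averaged over the 16 libraries, *Sstr3* stood at the 96.7th percentile of tested genes on this scale and *Sstr5* at the 19.4th. The order changed at its top with IL-1β plus butyrate, where *Adra2a* (48.4 CPM per kb, range 45.2 to 53.6) stood above *Sstr3* (42.0, range 40.6 to 43.1) without overlap, while their ranges overlapped with IL-1β alone and with butyrate alone. *Casr* moved from the fourth place in control islets to the sixth with IL-1β, where its range overlapped with that of *Glp1r*.

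**Figure D1:**
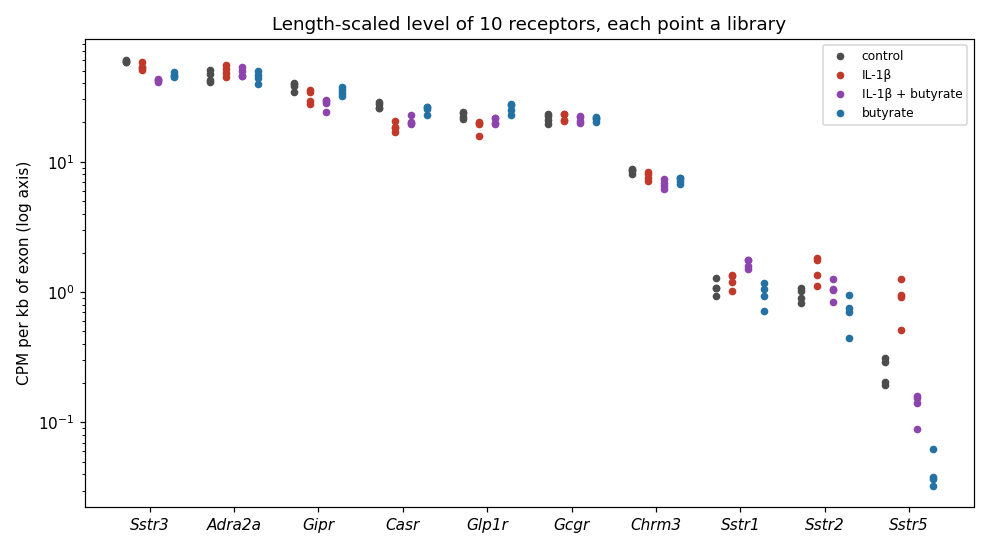
Length-scaled level of each receptor on a log axis (CPM per kb of exon), each point a library and each colour a condition. *Sstr3* and *Adra2a* lie at the top, *Chrm3* near 8 CPM per kb and the other somatostatin receptors near or below 1, and *Sstr5* shows the widest separation between conditions, from 0.0426 CPM per kb with butyrate to 0.909 with IL-1β.

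IL-1β against control changed 4 of the 10 receptors, where 17.8% of all tested genes were called. *Sstr5* and *Sstr2* rose (11.2% of tested genes rose) and *Casr* and *Glp1r* fell (6.59% fell). Butyrate on top of IL-1β, compared with IL-1β alone, changed 3 receptors, *Sstr5*, *Sstr3* and *Chrm3*, all of them lower, where 19.5% of tested genes were called in either direction, 11.1% lower and 8.41% higher. With butyrate alone against control, the 3 called receptors were again *Sstr5*, *Sstr3* and *Chrm3*, and they were lower too, where 19.9% of tested genes were called, 11.4% lower and 8.53% higher. The comparisons share libraries (control islets or IL-1β islets), so they are given side by side.

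Islets with both agents differed from control islets in 5 receptors, where 30.6% of tested genes were called: *Sstr1* was higher (15.8% of tested genes were higher) and *Gipr*, *Sstr3*, *Chrm3* and *Casr* were lower (14.8% lower). Within butyrate-treated islets, IL-1β changed 4 receptors, where 14.8% of tested genes were called, with *Sstr1* higher (9.92%) and *Glp1r*, *Gipr* and *Casr* lower (4.86%). *Gcgr* and *Adra2a* were called in none of these 5 comparisons by this test. Whether the butyrate effect depended on IL-1β was tested as a difference of effects, which was called for 0 receptors by edgeR's quasi-likelihood test and for 0 by DESeq2, where edgeR called 0.0968% of tested genes (18 genes, 0.043% positive and 0.0538% negative). At an unadjusted p under 0.05, edgeR gave 2 of the 10 receptors, *Sstr1* and *Casr*, and 1362 of the 18587 tested genes.

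**Figure D2:**
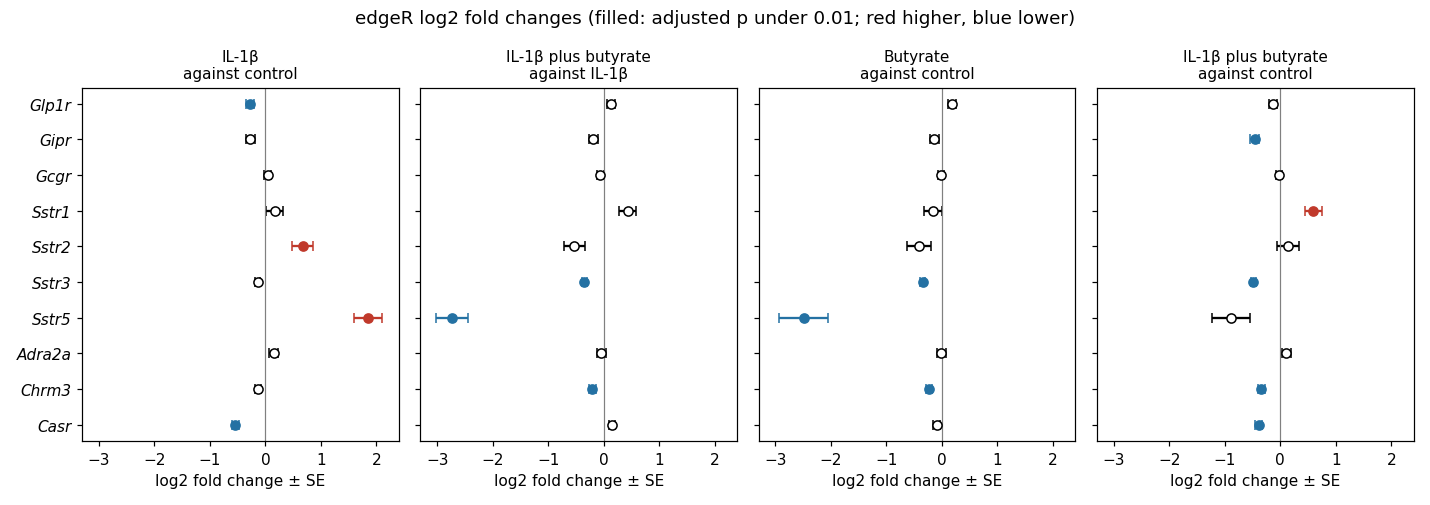
Log2 fold change ± SE of each receptor in 4 comparisons, from the edgeR fit, with filled points for an adjusted p under 0.01 (red higher, blue lower). *Sstr5* moved farthest, from 1.85 with IL-1β to -2.73 with butyrate on top of IL-1β, and the changes of the other receptors lay between -0.54 and 0.67.

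*Sstr5*, a Gi-coupled receptor for somatostatin that is known from beta cells, had the largest fold changes of the 10 and the lowest counts. In control islets replicates 1 to 4 held 12, 19, 11 and 20 counts (0.560, 0.792, 0.526 and 0.856 CPM). With IL-1β they held 27, 71, 50 and 69 counts (1.40, 3.46, 2.59 and 2.49 CPM). With IL-1β plus butyrate they held 6, 10, 10 and 8 counts (0.244, 0.424, 0.438 and 0.385 CPM), and with butyrate alone 2, 2, 2 and 4 counts (0.1004, 0.0888, 0.105 and 0.172 CPM). None of the 4 conditions overlapped with another, so that the libraries fell into the order butyrate, IL-1β plus butyrate, control and IL-1β. IL-1β raised *Sstr5* 3.59-fold (log2 1.85 ± 0.26 SE, 95% CI of the fold 2.49 to 5.18, FDR 2.55e-06). Butyrate on top of IL-1β lowered it to 0.151 of the IL-1β level (log2 -2.73 ± 0.28 SE, 95% CI 0.101 to 0.226, FDR 3.79e-08), the 21st largest absolute change of the 18587 genes in that comparison. Against control islets, butyrate alone lowered it as well (log2 -2.49 ± 0.44 SE, FDR 6.98e-05). From the summed counts, 10 with butyrate and 62 in control islets, the ratio was 0.171, with an exact 95% interval of 0.078 to 0.335 for counting error only.

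The other *Sstr5* contrasts missed the threshold. Both agents against control gave log2 -0.88 ± 0.34 SE (FDR 0.0386), and IL-1β in the presence of butyrate gave log2 1.61 ± 0.49 SE (FDR 0.017), although in both the 4 libraries of one condition lay clear of the other. The summed counts in the second contrast, 34 with both agents and 10 with butyrate, had a ratio of 3.14 (exact 95% interval 1.52 to 7.13, counting error only). That contrast passed when IL-1β replicate 1 was left out of the shared fit (FDR 0.00639), although this library is in neither of its conditions. The butyrate effect with IL-1β minus that without it was log2 -0.24, with a 95% CI of -1.71 to 1.24, so at 2 to 4 counts per butyrate library a difference of several fold in either direction was not detectable.

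Markers of macrophages, the resident immune cells of islets, moved with *Sstr5* in some comparisons and against it in another. The summed CPM of 12 macrophage markers was 134 to 146 (control), 193 to 242 (IL-1β), 104 to 144 (both agents) and 88.5 to 109 (butyrate). All 12 had counts in all 16 libraries. Of the 12, 11 rose and 1 (*C1qa*, a complement component, named after its value was seen) fell with IL-1β, where 11.2% of tested genes rose and 6.59% fell. When butyrate was added to IL-1β 7 fell (11.1% of tested genes fell), and 1 fell with butyrate alone (11.4% fell). With both agents against control, 8 of the 12 were higher and 1 was lower (median log2 1.22), where *Sstr5* was at log2 -0.88. Of all tested genes, 15.8% were higher and 14.8% lower in that comparison. The lower sum with both agents followed *C1qa*, the most abundant of the 12 in control islets (mean 111 CPM, and 51.2 CPM with both agents). Acinar markers, from the enzyme-secreting pancreas, were sparse (0.542 to 14.2 summed CPM) and 2 of their 4 tested genes rose with IL-1β (11.2% of all tested genes rose). The part of these cells in the *Sstr5* values was not tested.

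*Sstr3*, the somatostatin receptor with nearly all of the family's transcripts, fell with butyrate in both settings by a similar step. Its CPM in replicates 1 to 4 was 250, 255, 259 and 253 in control islets and 252, 228, 226 and 218 with IL-1β. It was 186, 182, 182 and 176 with both agents, and 199, 192, 212 and 198 with butyrate. The libraries with butyrate, with or without IL-1β, all lay below all libraries without it. Butyrate lowered *Sstr3* to 0.786 of the control level (log2 -0.35 ± 0.05 SE, FDR 1.68e-06) and to 0.786 of the IL-1β level (log2 -0.35 ± 0.05 SE, FDR 1.83e-06). The difference between both effects was log2 0.00, with a 95% CI of -0.13 to 0.14 (difference as a ratio 0.912 to 1.10). IL-1β itself gave -0.14 ± 0.05 SE without butyrate (FDR 0.0242) and -0.14 ± 0.05 SE with it (FDR 0.0308), changes that missed the threshold. Each of these was called when IL-1β replicate 1, the highest library of its condition, was left out (FDR 0.0034 and 0.0097). The contrast with butyrate does not hold this library, so there only the shared fit changed. Both agents against control gave the lowest mean, 182 ± 4.48 against 254 ± 3.91 CPM (log2 -0.49 ± 0.05 SE, FDR 2.03e-09).

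*Sstr2*, the somatostatin receptor known in rodent islets mainly from alpha cells, was low but counted in every library. Control replicates 1 to 4 were at 2.19, 1.92, 2.29 and 1.76 CPM and IL-1β replicates at 3.93, 3.80, 2.38 and 2.89 CPM. The libraries with both agents were at 2.68, 2.25, 1.80 and 2.22 CPM, and those with butyrate at 1.61, 2.04, 1.52 and 0.946 CPM. All 4 IL-1β libraries stood above the control libraries, replicate 3 by a small margin, and IL-1β replicates 1 and 2 stood apart from 3 and 4. *Sstr2* rose 1.59-fold with IL-1β (log2 0.67 ± 0.19 SE, 95% CI of the fold 1.21 to 2.09, FDR 0.00969), close to the threshold. This call was lost when any one of 10 libraries was left out (control replicates 1 to 4, IL-1β replicates 1 and 2, IL-1β plus butyrate replicates 2 and 4, butyrate replicates 1 and 3; FDR 0.0106 to 0.0388). Butyrate on top of IL-1β gave log2 -0.53 ± 0.19 SE (FDR 0.0339), and butyrate alone -0.42 ± 0.21 SE (FDR 0.154), neither of which passed.

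*Sstr1*, a further somatostatin receptor, was highest with both agents together. Its CPM in replicates 1 to 4 was 2.61, 2.21, 1.91 and 2.18 in control islets, 2.43, 2.09, 2.70 and 2.74 with IL-1β, and 2.41, 1.91, 1.46 and 2.15 with butyrate, ranges that overlapped. With both agents it was 3.57, 3.10, 3.59 and 3.23, above every other library of the series. *Sstr1* rose 1.51-fold against control (log2 0.60 ± 0.15 SE, FDR 0.00231) and 1.69-fold against butyrate alone (log2 0.76 ± 0.16 SE, FDR 0.000524), while against IL-1β alone the change missed the threshold (log2 0.43 ± 0.15 SE, FDR 0.0307). Without control replicate 3, the lowest of its condition, the first of these was lost (FDR 0.0118). Neither agent by itself gave a call (IL-1β log2 0.16 ± 0.16 SE, FDR 0.5; butyrate -0.16 ± 0.17 SE, FDR 0.507). The difference between the butyrate effects was log2 0.60 ± 0.22 SE (95% CI 0.14 to 1.06), with an unadjusted p of 0.013 and an FDR of 0.459.

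Scaled by exon length and summed, the 4 somatostatin receptors gave 61.2 ± 0.803 CPM per kb in control islets, 57.1 ± 3.42 with IL-1β, 44.9 ± 1.16 with both agents and 48.0 ± 1.78 with butyrate. *Sstr3* made up 96.3% of this sum in control islets, 93.6% with IL-1β, 93.7% with both agents and 96.4% with butyrate. The share of *Sstr5* was 0.409%, 1.61%, 0.305% and 0.0889% in the same order, and that of *Sstr1* was largest with both agents (3.67%, range 3.37% to 3.91%, against 1.5% to 2.11% in control islets). The large fold changes of *Sstr5* therefore concerned a small part of the family's transcripts, and the sum followed *Sstr3*.

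*Adra2a*, the receptor through which adrenaline and noradrenaline curb insulin secretion, did not pass the main test in any comparison, and passed with IL-1β under 1 alternative, the replicate number as a block (FDR 0.00226; 0.00226 to 0.455 over the alternatives). Its means were 217 ± 21.1 CPM in control islets, 241 ± 22.8 with IL-1β, 234 ± 19.1 with both agents and 216 ± 20.8 with butyrate, and the 4 ranges overlapped (190 to 268 CPM over all libraries). The 95% CI of the fold was 0.98 to 1.25 for IL-1β, 0.862 to 1.10 for butyrate on top of IL-1β and 0.879 to 1.12 for butyrate alone, and its sign turned under upper-quartile scaling in both butyrate comparisons, with no call.

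**Figure D3:**
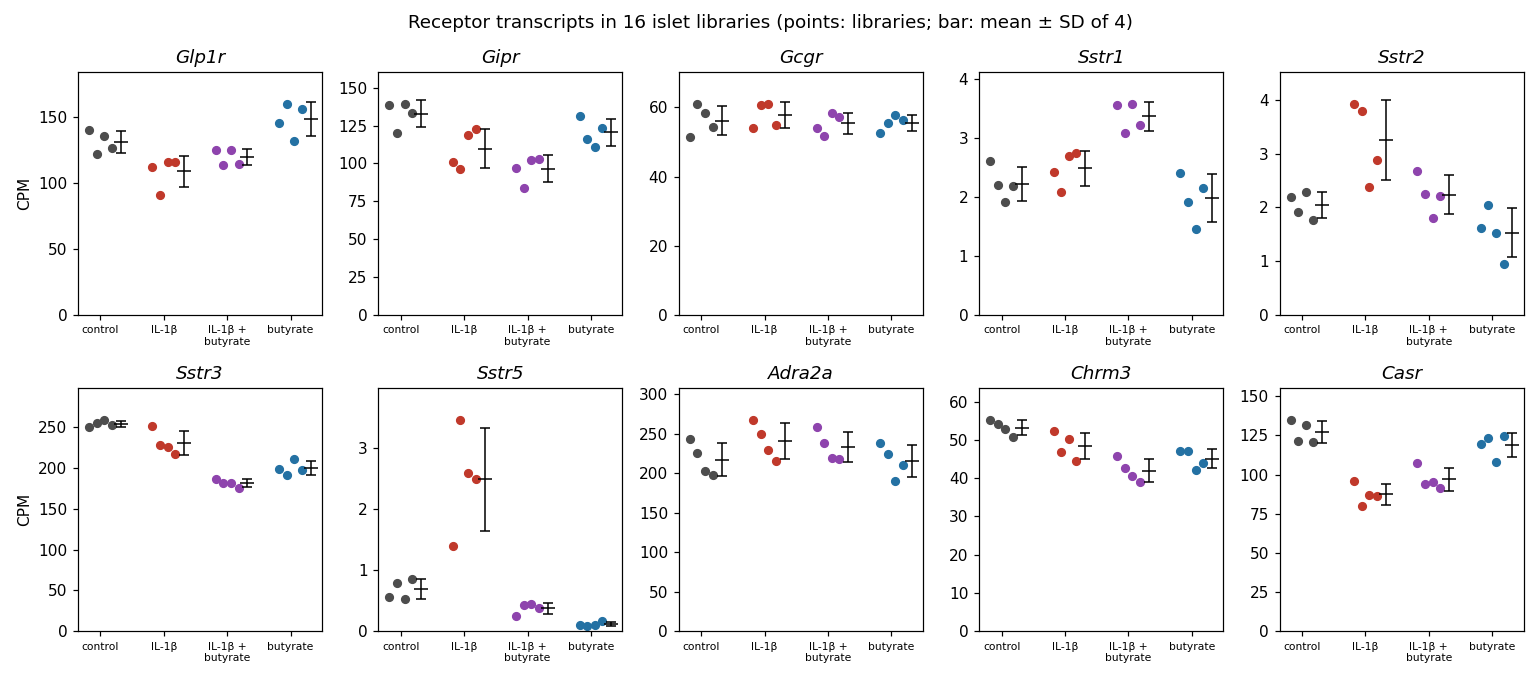
CPM of the 10 receptors in the 16 libraries, each point a library (replicates 1 to 4 from left to right within a condition) and each bar the mean ± SD of 4. *Sstr5* was at 1.40 to 3.46 CPM with IL-1β and under 0.5 CPM in all libraries with butyrate, *Sstr1* was above 3 CPM in the libraries with both agents only, and *Casr* was lower in all IL-1β libraries than in any control library.

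*Casr*, the calcium-sensing receptor, which in islets responds to calcium released with the granule contents, fell with IL-1β whether butyrate was present or not. Control replicates 1 to 4 were at 135, 121, 132 and 121 CPM and butyrate replicates at 120, 123, 108 and 125 CPM. The IL-1β replicates were at 96.1, 80.2, 87.0 and 86.0 CPM, and those with both agents at 107.5, 93.7, 95.3 and 91.1 CPM. Every library with IL-1β lay below every library without it, although IL-1β plus butyrate replicate 1 (107.5 CPM) nearly reached butyrate replicate 3 (108.0 CPM). IL-1β lowered *Casr* to 0.687 of control (log2 -0.54 ± 0.06 SE, 95% CI of the fold 0.631 to 0.748, FDR 6.82e-08), to 0.815 in the presence of butyrate (log2 -0.30 ± 0.06 SE, FDR 0.000445), and both agents lowered it to 0.763 of control (log2 -0.39 ± 0.06 SE, FDR 5.86e-06). Butyrate had no called effect, with log2 0.15 ± 0.06 SE on top of IL-1β (FDR 0.0591) and -0.09 ± 0.06 SE alone (FDR 0.251). The difference between these effects was log2 0.25 ± 0.08 SE (95% CI 0.07 to 0.42), with an unadjusted p of 0.00723 and an FDR of 0.379.

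*Chrm3*, the muscarinic receptor through which acetylcholine acts on beta cells, fell with butyrate by a small step. Its CPM in replicates 1 to 4 was 55.3, 54.1, 52.8 and 50.7 in control islets and 52.4, 46.9, 50.2 and 44.6 with IL-1β. It was 45.7, 42.8, 40.6 and 38.9 with both agents, and 47.3, 47.0, 42.1 and 44.1 with butyrate. The butyrate libraries lay below the control libraries, whereas IL-1β replicate 4 lay below replicate 1 with both agents. *Chrm3* fell to 0.848 of control with butyrate (log2 -0.24 ± 0.06 SE, FDR 0.00207), to 0.869 of the IL-1β level when butyrate was added (log2 -0.20 ± 0.06 SE, FDR 0.00806) and to 0.79 of control with both agents (log2 -0.34 ± 0.06 SE, FDR 2.07e-05). IL-1β alone gave log2 -0.14 ± 0.06 SE (FDR 0.0788). The call for butyrate on top of IL-1β was lost without any one of 6 libraries (control replicates 2 and 3, IL-1β replicates 1 and 3, IL-1β plus butyrate replicates 3 and 4; FDR 0.0102 to 0.0298), and that for butyrate alone without butyrate replicate 3 (FDR 0.0119).

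*Glp1r*, the receptor for glucagon-like peptide 1 and the target of the GLP-1 class of diabetes drugs, fell with IL-1β, both without and with butyrate in the medium. Control replicates 1 to 4 were at 141, 123, 136 and 127 CPM and IL-1β replicates at 113, 91.3, 117 and 116 CPM. With both agents the libraries were at 125, 114, 125 and 115 CPM, and with butyrate at 146, 161, 132 and 157 CPM. The IL-1β libraries lay below the control libraries and those with both agents below those with butyrate, and IL-1β replicate 2 was the lowest of all 16. IL-1β lowered *Glp1r* to 0.83 of control (log2 -0.27 ± 0.07 SE, FDR 0.00659) and to 0.804 within butyrate-treated islets (log2 -0.31 ± 0.07 SE, FDR 0.00206). The first call was lost without any one of 7 libraries (control replicates 1, 3 and 4, IL-1β replicates 1 and 2, IL-1β plus butyrate replicates 2 and 4; FDR 0.0102 to 0.0245), and without IL-1β replicate 2 the change was -0.19 (FDR 0.0177); the second was lost without butyrate replicate 2 or 4 (FDR 0.01 and 0.0105). Under scaling by library size alone the FDR was 0.0941 for the first and 0.0716 for the second. Both agents against control overlapped and were not called (log2 -0.13 ± 0.07 SE, FDR 0.144). Butyrate gave log2 0.18 ± 0.07 SE alone (FDR 0.0619) and 0.13 ± 0.07 SE on top of IL-1β (FDR 0.166).

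*Gipr*, the receptor of the other incretin hormone, had a similar fall with IL-1β that passed the test only in part. Its CPM in replicates 1 to 4 was 138, 120, 140 and 133 in control islets, 101, 96.5, 119 and 123 with IL-1β, 97.3, 83.7, 102 and 103 with both agents and 131, 116, 111 and 123 with butyrate. IL-1β replicate 4 reached into the control range, while the libraries with both agents lay below all control and all butyrate libraries. IL-1β gave log2 -0.27 ± 0.08 SE (FDR 0.0154), not past the threshold, and past it without control replicate 2, IL-1β replicate 4 or IL-1β plus butyrate replicate 2 (FDR 0.00615 to 0.0084). This change also passed with the replicate number as a block. Within butyrate-treated islets IL-1β lowered *Gipr* to 0.801 (log2 -0.32 ± 0.08 SE, FDR 0.0063), a call lost without any one of 5 libraries (IL-1β plus butyrate replicates 1 and 2, butyrate replicates 1, 2 and 4; FDR 0.0107 to 0.0237), and at an FDR of 0.129 when scaled by library size alone. Both agents lowered it to 0.727 of control (log2 -0.46 ± 0.08 SE, FDR 0.000113), and butyrate by itself was not called (log2 -0.14 ± 0.08 SE, FDR 0.212).

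*Gcgr*, the glucagon receptor, had nearly equal means in the 4 conditions: 56.2 ± 4.29 CPM in control islets, 57.8 ± 3.71 with IL-1β, 55.4 ± 3.04 with both agents and 55.5 ± 2.20 with butyrate. The 95% CI of its fold was 0.947 to 1.11 for IL-1β, 0.885 to 1.04 for butyrate on top of IL-1β and 0.91 to 1.07 for butyrate alone, so that changes of these sizes remained possible. Its sign changed with the scaling in 3 of these comparisons (butyrate alone, both agents against control, and IL-1β with butyrate), with no call under any of them.

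Of the beta cell markers, 8 of 10 fell with IL-1β (6.59% of tested genes fell) and 1 rose (11.2% rose). The 1 that rose was *Iapp*, which encodes islet amyloid polypeptide, named after its value was seen. Their summed CPM was 215300 to 238100 (control), 138400 to 180000 (IL-1β alone), 138600 to 170900 (both agents) and 223700 to 263200 (butyrate alone). *Casr* was lower in the same conditions, and *Glp1r* with IL-1β alone against control. Within butyrate-treated islets *Glp1r* and *Gipr* were lower with IL-1β, and *Gipr* was lower with both agents against control. The part of beta cell content in the values of these receptors was not tested. The sums for duct markers were 341 to 368 CPM (control) and 503 to 600 CPM (IL-1β), with 3 of 5 tested genes higher (11.2% of all tested genes). *Krt7* (means of 336 and 394 CPM) and *Spp1* (11.9 and 158 CPM) held most of these duct sums. *Sox9* did not rise (2.04 and 1.81 CPM). The sums for delta cell markers were 1697 to 1995 CPM (control) and 2395 to 2776 CPM (butyrate). They were mostly *Sst* (means of 1650 of 1786 CPM and 2418 of 2559 CPM). Only *Sst* of the 5 delta markers was called with butyrate alone, where 19.9% of tested genes were called. Of 8 alpha cell markers, 5 fell with butyrate alone (median log2 -0.59, with 11.4% of tested genes lower). With butyrate on top of IL-1β 5 fell and 1 rose (median -0.46, with 11.1% of tested genes lower and 8.41% higher). With both agents against control 5 fell (median -0.43, with 14.8% of tested genes lower). *Sstr3*, *Sstr5* and *Chrm3* moved down with butyrate as well. The summed CPM of the alpha cell markers was 21380 to 24540 (control), 20650 to 26170 (IL-1β), 25100 to 28100 (both agents) and 18790 to 22210 (butyrate). *Gcg* alone held most of it, with a mean of 21530 of 23060 CPM in control islets and 25350 of 26090 CPM with both agents. The part of delta and alpha cells in the butyrate changes of these receptors was not tested.

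A list of ligand genes was followed too, 13 genes with those for catecholamine and acetylcholine synthesis and storage, of which 9 passed the filter. Besides ligands of the receptors described here, the list held the islet peptide genes *Ucn3*, *Npy*, *Ppy* and *Pyy*. The products of these peptide genes are not ligands of the receptors described here. *Sst*, the gene of somatostatin, rose with butyrate (2418 ± 160 against 1650 ± 143 CPM, log2 0.55 ± 0.08 SE, FDR 2.78e-05) and with butyrate on top of IL-1β (2640 ± 240 against 1735 ± 218 CPM, log2 0.61 ± 0.08 SE, FDR 1.01e-05), so that the hormone's transcript rose where *Sstr3* and *Sstr5* fell. *Gcg*, the precursor of glucagon and GLP-1, was at 21530 ± 1510 CPM in control islets and rose with butyrate on top of IL-1β (log2 0.25 ± 0.07 SE, FDR 0.00869) but was not called with IL-1β (-0.02 ± 0.07 SE, FDR 0.888). *Th*, tyrosine hydroxylase, the rate-limiting enzyme of catecholamine synthesis, rose with butyrate alone (log2 1.56 ± 0.24 SE, FDR 0.000303) and on top of IL-1β (1.17 ± 0.26 SE, FDR 0.0047).

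*Ucn3*, urocortin 3, a beta cell peptide that drives somatostatin release, fell with IL-1β from 313 ± 11.8 to 140 ± 6.46 CPM (log2 -1.16 ± 0.05 SE, FDR 8.74e-16) and slightly with butyrate alone (-0.28 ± 0.05 SE, FDR 0.000115). *Npy*, neuropeptide Y, fell with IL-1β (9.32 ± 2.55 to 3.64 ± 0.88 CPM, log2 -1.38 ± 0.22 SE, FDR 7.49e-05), with butyrate (1.504 ± 0.484 CPM, -2.65 ± 0.25 SE, FDR 2.25e-07) and furthest with both (0.525 ± 0.167 CPM, -4.14 ± 0.29 SE, FDR 1.73e-09). *Ppy* (log2 -0.48, FDR 0.0369, with IL-1β) and *Pyy* (-0.04, FDR 0.771) were not called. Nor were the vesicle transporters *Slc18a2* and *Slc18a3*, at means of 0.784 to 2.51 CPM. *Gip*, *Cort*, *Chat* and *Dbh* had at most 6 counts in any library and were not tested.

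Downstream of the receptors, lists of G protein subunits, cAMP pathway, phospholipase C pathway and receptor desensitisation were counted. With IL-1β (11.2% of tested genes higher, 6.59% lower) 5 of 23 G protein genes rose and 1 fell (median log2 0.07, beside -0.03 for all tested genes), 9 of 40 tested cAMP pathway genes rose and 2 fell (median 0.03), 3 of 18 phospholipase C genes rose and 2 fell (median 0.05), and 10 of 27 desensitisation genes rose and 2 fell (median -0.02). *Rgs4*, a regulator that speeds the shutdown of Gi and Gq signals, was at 44.7, 38.7, 45.8 and 42.8 CPM in the control libraries and 516, 586, 540 and 564 CPM with IL-1β (log2 3.68 ± 0.16 SE, FDR 6.66e-10). With both agents *Rgs4* was in the same range or above (548, 729, 568 and 667 CPM) and was at 33.6 to 59.9 CPM with butyrate. *Rgs16* (log2 1.31 ± 0.12 SE, FDR 8.44e-07) and *Rgs8* (1.29 ± 0.20 SE, FDR 1.16e-05), of the same family, rose with IL-1β as well, while *Rgs3* (-0.48, FDR 1.13e-05) and *Rgs2* (-0.33, FDR 5.65e-05) fell.

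Of the adenylyl cyclases, which make cAMP, *Adcy1* was at 6.91 to 8.65 CPM in the control libraries, 18.6 to 29.1 CPM under IL-1β, 6.46 to 11.7 with both agents and 3.26 to 5.64 with butyrate. *Adcy1* rose with IL-1β (log2 1.70 ± 0.18 SE, FDR 4.14e-06) and fell when butyrate was added (-1.41 ± 0.17 SE, FDR 2.42e-05). *Adcy8* had the same course (1.29 ± 0.19 SE, FDR 1.56e-05; -1.25 ± 0.19 SE, FDR 2.51e-05), and both calcium-stimulated cyclases thus showed the up and down sequence that *Sstr5* showed among the receptors. *Pde1c*, a calcium and calmodulin-dependent phosphodiesterase that degrades cyclic nucleotides, rose with IL-1β (0.53 ± 0.07 SE, FDR 1.01e-05) and fell with butyrate in both settings (-0.84, FDR 3.36e-08; -0.94, FDR 1.05e-08). *Pde4c*, a cAMP phosphodiesterase, did the reverse (-0.47 ± 0.10 SE with IL-1β, FDR 0.000475; 0.65 on top of IL-1β, FDR 7.8e-06; 0.71 alone, FDR 6.9e-07).

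Among G protein subunits, *Gng2* (log2 1.35 ± 0.08 SE, FDR 5.86e-13) and *Gna14* of the Gq class (1.58 ± 0.24 SE, FDR 8.85e-06) rose with IL-1β, *Gng7* rose with butyrate (1.23 ± 0.12 SE alone, FDR 1.25e-08; 1.07 ± 0.12 SE on top of IL-1β, FDR 1.55e-07), and *Gng4* fell with butyrate (-0.59, FDR 0.000152 alone; -0.59, FDR 0.000163 on top of IL-1β). *Gng12* fell with IL-1β from 1586 ± 52.6 to 1050 ± 122 CPM (-0.60 ± 0.07 SE, FDR 1.2e-06) and rose with butyrate alone (0.27 ± 0.07 SE, FDR 0.00732). The Gi subunit *Gnai1* rose with IL-1β (0.42 ± 0.08 SE, FDR 0.000129), and *Gnai2*, of the same class, rose with butyrate (0.38 ± 0.04 SE, FDR 1.38e-07). In the phospholipase C list, *Trpm5*, a calcium-activated cation channel of beta cells, fell with IL-1β from 83.9 ± 4.20 to 31.8 ± 4.80 CPM (log2 -1.41 ± 0.15 SE, FDR 9.09e-06), and *Plcb3* rose with butyrate (0.50 ± 0.07 SE, FDR 2.83e-06) while *Plcb1* fell (-0.39 ± 0.07 SE, FDR 6.99e-05). With butyrate alone (8.53% of tested genes higher, 11.4% lower), 7 of 23 G protein genes rose and 1 fell, 4 of 40 cAMP pathway genes rose and 5 fell, 4 of 18 phospholipase C genes rose and 2 fell, and 2 of 27 desensitisation genes rose and 1 fell. On top of IL-1β (8.41% higher, 11.1% lower) the same lists had 5, 3, 4 and 2 genes that rose and 3, 6, 1 and 4 that fell.

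Other G protein-coupled receptors of islets were counted for comparison, 41 tested of 62 listed. With IL-1β 10 rose and 5 fell (median log2 -0.16, beside -0.03 for all tested genes), where 11.2% of tested genes rose and 6.59% fell. With butyrate on top of IL-1β 4 rose and 3 fell (median 0.08, beside 0.01), where 8.41% rose and 11.1% fell. With butyrate alone 5 rose and 5 fell (median 0.09, beside 0.01), where 8.53% rose and 11.4% fell. *Ptger4*, a Gs-coupled prostaglandin E2 receptor, was highest with IL-1β and lowest with butyrate, as *Sstr5* was, but with both agents it overlapped with control: 2.42 to 3.83 CPM in the control libraries, 7.72 to 9.88 CPM under IL-1β, 2.80 to 3.47 with both agents and 0.711 to 1.26 with butyrate (IL-1β log2 1.52 ± 0.14 SE, FDR 9.84e-10; butyrate on top of IL-1β -1.40 ± 0.13 SE, FDR 7.48e-09; butyrate alone -1.60 ± 0.19 SE, FDR 2.21e-07). *Adora2b*, an adenosine receptor, rose with IL-1β (1.28 ± 0.10 SE, FDR 3.37e-10), as did *S1pr2* (1.33 ± 0.27 SE, FDR 0.000381), while *Gprc5b* fell (-1.23 ± 0.17 SE, FDR 1.8e-06). *Vipr1*, a receptor for vasoactive intestinal peptide, fell with IL-1β (78.4 ± 4.69 to 44.4 ± 3.58 CPM, -0.82 ± 0.06 SE, FDR 7.49e-12), and *Galr1*, a receptor for the inhibitory peptide galanin, fell too (-0.53 ± 0.13 SE, FDR 0.00847). *P2ry1*, a purine receptor, fell with butyrate (-1.08 ± 0.21 SE alone, FDR 0.00188; -1.30 ± 0.22 SE on top of IL-1β, FDR 0.000648), as did the oxytocin receptor *Oxtr* with butyrate alone (-0.90 ± 0.13 SE, FDR 8.11e-05). Risers with butyrate alone were *Gprc5c* (0.92 ± 0.11 SE, FDR 3.24e-06), *Crhr2* (0.77 ± 0.19 SE, FDR 0.00225) and *Adora1* (0.70 ± 0.08 SE, FDR 6.53e-07). On top of IL-1β, *Gprc5c* (0.75 ± 0.10 SE, FDR 1.33e-05) and *Adora1* (0.85 ± 0.09 SE, FDR 5.13e-08) rose too.

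*Ramp1* encodes an accessory protein that pairs with the calcitonin receptor-like receptor. In the main fit it was the one gene of these lists called for the difference of the butyrate effects (log2 -1.27 ± 0.22 SE, FDR 0.00451). The missing call of the other genes does not show that their butyrate effects were equal. The mean of *Ramp1* was 2.45 ± 0.334 CPM in control islets, 5.61 ± 1.17 with IL-1β, 2.79 ± 0.269 with both agents and 2.96 ± 0.421 with butyrate.

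**Figure D4:**
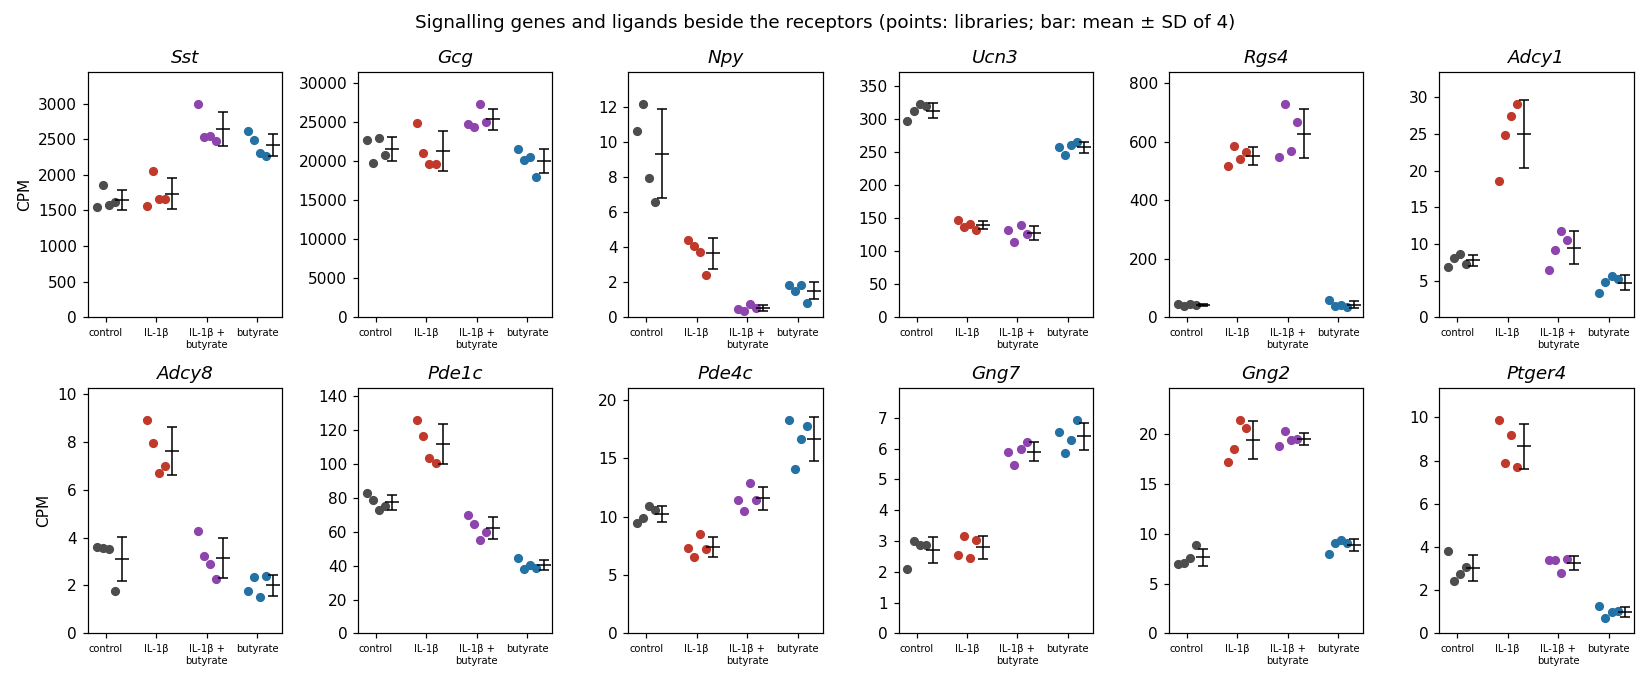
CPM of 4 ligand genes, 7 signalling genes and the prostaglandin receptor gene *Ptger4* in the 16 libraries, each point a library and each bar the mean ± SD of 4. *Sst* is higher in the libraries with butyrate, *Rgs4* is at 516 CPM or more in all IL-1β libraries and under 60 CPM without IL-1β, and *Adcy1* and *Ptger4* are high with IL-1β alone.

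Genes whose log2 CPM followed each receptor most closely over the 16 libraries, among 12692 tested genes with an average log2 CPM of at least 1, are given as a description. The libraries share conditions and replicate numbers, so these correlations largely repeat the differences between conditions. *Sstr5* was followed by *Pigk* (r = 0.984) and *Erlec1* (0.972), whose changes were smaller (log2 0.31 and 0.24 with IL-1β, -0.38 and -0.36 with butyrate on top of IL-1β). *Sstr3* was followed by *Rab3d* (0.984) and *Nptx2* (0.978), and *Nptx2* changed far more than the receptor with butyrate (log2 -3.08 alone and -3.26 on top of IL-1β). For *Casr* they were *Kif1b* (0.977) and *Cdk16* (0.947), for *Glp1r* *Btrc* (0.959) and *Rimbp2* (0.948), and for *Gipr* *Insrr* (0.929) and *Kif19a* (0.928). *Chrm3* was followed by *Slc16a12* (0.945) and by another receptor gene, *Tacr3* (0.942), the neurokinin receptor gene, at log2 -2.06 with butyrate alone. The 2 closest genes of *Sstr1*, *Sstr2* and *Adra2a* had r between 0.895 and 0.947, and *Gcgr* had the weakest likeness, with *Wdr92* (0.808) and *Polr2i* (0.662).

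By position on GRCm38 (GENCODE M21), *Sstr5* lies at chr17:25489875-25497288 on the minus strand and *Sstr3* at chr15:78537008-78544685 on the minus strand, and no exon of the 10 receptors overlaps an exon of another gene on either strand. *Sstr2* lies within the span of *Slc39a11*, a zinc transporter gene on the opposite strand, so reads from introns of that gene could not be told from *Sstr2* reads if the counting did not use strand, which is not given in the sources used here.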

How the data were processed

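RNA of mouse islets was sequenced as single-end reads in 16 libraries of 4 conditions. Per the labels and their processing notes, the authors mapped reads to GRCm38 with STAR 2.5.3a, and they deposited counts, whole reads per gene without normalization, 1 column per library. The annotation release and the strand setting of the counting are not given in the sources used here. Symbols, positions and exon lengths were taken from GENCODE M21 (52489 of 52636 identifiers matched), and promoter stretches from RefSeq (GRCm38.p6).

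In R 4.3.3, edgeR 4.0.16 filtered low counts (filterByExpr by condition), scaled by TMM and fitted a robust quasi-likelihood model with 4 conditions to all libraries, without a replicate term. P-values were adjusted over all 18587 tested genes (Benjamini-Hochberg, threshold 0.01). The fit was also run on simulated counts that held no replicate effect, so that run could not test for one. A library held 18635943 to 25955943 counts, and low counts, as in *Sstr5*, limit precision. Reads carried no molecular identifiers. The exact intervals of *Sstr5* come from counts summed over libraries, so they cover counting error only and leave out the spread between libraries. Replicates differed by more than counting error (chi-square per gene from 1.72 to 13.5 between libraries of a condition).

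The alternatives were DESeq2 1.42.0, other scalings (RLE, upper quartile, library size), no filter, the replicate number as a block, a fit of only the conditions compared, a threshold of 0.05, and each library left out in turn. Leaving out a library also changed the shared fit for comparisons that do not hold it. Named were all 10 receptors, the ligand genes and the 2 genes most correlated with each receptor. Each signalling list gave up to 3 called genes with the largest rise and fall per comparison (average log2 CPM of at least 0). Some of these, not all, were named. The members and lists were chosen with earlier results of these data known.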

Additional observations from a re-analysis of the deposited data

Results flagged for a closer look

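Over the 40 groups of 4 libraries (10 receptors in 4 conditions), 1 was marked by a sample far from the others. *Glp1r* in IL-1β replicate 2 was at 91.28 CPM, while the other IL-1β libraries were at 112.6 to 116.5 CPM, and its gap to the nearest of them was 0.845 of the range, above the critical value of Dixon's test for 4 samples. Chance marks about 1 in 20 such groups. Without this library, IL-1β changed *Glp1r* by log2 -0.19 (FDR 0.0177).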

How the results depend on the processing

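All *Sstr5*, *Sstr3* and *Casr* calls held, in direction and call, under all 23 alternatives other than the 0.05 threshold, except that *Casr* with both agents against butyrate was lost under library size scaling (FDR 0.0203). Of 1429 single-receptor values, 1315 were unchanged in call and direction, 41 lost and 29 gained a call, and 44 turned sign, of which 0 were called.

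The receptors called numbered 2 to 5 for IL-1β against control and 2 to 6 for IL-1β within butyrate-treated islets when 1 library was left out, and 2 for the latter under library size scaling. The 0.05 threshold gave 5 receptors for butyrate on top of IL-1β. Over all genes, the number lower with IL-1β was 708 under library size scaling and 2128 at 0.05. IL-1β plus butyrate against butyrate gave 1420 lower under upper-quartile scaling, 3153 higher and 451 lower under library size scaling, and 1556 lower at 0.05. Butyrate on top of IL-1β gave 5595 genes at 0.05 (2457 higher, 3138 lower). The difference of the butyrate effects gave 52 genes with DESeq2 (23 higher, 29 lower), 95 without the filter (52, 43), 39 at 0.05 (19, 20), and 11 to 23 genes (4 to 13 lower) with 1 library left out. The share of calls that were higher moved with scaling: from 63% to 51.5% (upper quartile) and 79.8% (library size) for IL-1β, from 43.1% to 57.7% for butyrate on top of IL-1β, and from 42.9% to 58.5% for butyrate alone (both upper quartile). It moved from 51.6% to 66.9% for both agents against control (library size), from 67.1% to 53.2% (upper quartile) and 87.5% (library size) for IL-1β within butyrate, and from 44.4% to 55.6% for the difference (library size). The cause was not tested.

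When the replicate number entered as a block, 132 genes were called for the difference of the butyrate effects (60 higher, 72 lower), 1951 were lower with IL-1β, 1407 were lower with IL-1β within butyrate, and 5 receptors were called for butyrate on top of IL-1β. The correlation of deviations of same-numbered libraries was 0.0448 to 0.487 (median 0.2785, 22 of 24 pairs over 0.1). For other-numbered libraries of different conditions it was -0.377 to 0.264 (median -0.1285). Deviations were taken from each condition's mean, so higher values for same-numbered pairs go with lower ones for the rest by construction. All 16 libraries correlated best with their own number, as a hint from the data. The study speaks of independent experiments and the labels number the libraries replicate by replicate, but neither says outright that a number joins libraries of different conditions, and 2 pairs were not over 0.1. The block called *Adra2a* (FDR 0.00226), *Gipr* (0.000168) and *Sstr3* (0.0051) with IL-1β and not *Glp1r* (0.0134).

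Signs turned for these uncalled values. *Sstr3*, difference: -0.00558 with DESeq2, -0.00618 with RLE, -0.000503 with upper quartile. Upper quartile gave *Adra2a* 0.01004 (butyrate on top of IL-1β) and 0.0404 (alone) and *Gcgr* 0.0316 (butyrate alone). Library size gave *Gcgr* 0.0543 (both agents against control) and 0.0964 (against butyrate) and *Adra2a* 0.00762 (difference), and no filter gave *Gcgr* 0.0215 (both agents against butyrate). With 1 library left out, *Gcgr* ranged from -0.00314 to 0.0799 with IL-1β, -0.0605 to 0.0225 with butyrate, -0.0629 to 0.0201 with both against control and -0.0286 to 0.0272 against butyrate, and *Adra2a* from -0.0627 to 0.0472 with butyrate. The differences ranged from -0.105 to 0.00114 (*Gipr*), -0.0845 to 0.000747 (*Gcgr*), -0.300 to 0.0682 (*Sstr2*), -0.0399 to 0.0296 (*Sstr3*), -0.437 to 0.0227 (*Sstr5*), -0.0919 to 0.0222 (*Adra2a*) and -0.0191 to 0.0574 (*Chrm3*). Depth limits *Sstr5*, *Sstr1* and *Sstr2*, which had 2 to 88 counts per library.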
